A study of Mus musculus with 2 samples.

Results

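Adipokines are proteins that fat cells secrete, and the genes described here are 4 of them together with 6 genes of fat cell identity and metabolism: Adipoq, Cfd, Lep and Retn, and Car3, Fabp4, Lpl, Pparg, Cebpa and Ucp1. They were followed in the pancreas of mice that lack nardilysin, the metalloendopeptidase encoded by Nrdc, in the pancreatic epithelial lineage. All 10 genes had probes, 15 in all, out of 22911 named genes and 56604 non-control probes on the arrays. A probe was assigned through the RefSeq accession that the array lists for it, and the rule that assigns probes uses no measured value.

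Pancreas RNA of WT and of Nrdc-cKO male mice, both C57BL/6 and 5 weeks of age, was hybridised to 1 single-colour Agilent array each. The Nrdc-cKO genotype was Ptf1a-Cre; Nrdcflox/flox, in which Cre is expressed under Ptf1a, a gene of pancreatic progenitors and acinar cells. The labels do not say whether the WT mouse carried Cre or floxed alleles, or whether tissue of several animals was pooled. Nrdc itself stood at a processed signal of 270 in WT and 93.9 in Nrdc-cKO, which after scaling is a log2 difference of -3.21. Of its size, 1.68 is the gap between the array percentiles used for scaling, described below.

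Levels below are log2 processed signals minus the 75th percentile of the non-control probes of the same array. That percentile was 70.8 in WT and 227 in Nrdc-cKO, so an equal signal on both arrays is 1.68 lower on the log2 scale on the Nrdc-cKO array after scaling. A gene was detected where at least 0.5 of a probe's spots were well above background, which held for 46.3% of non-control spots in WT and 60.3% in Nrdc-cKO. With 1 array a group there was no replicate error, no test and no p-value, and the number of arrays limits the precision. The errors given beside signals are those the scanner software estimated for the spot, and leave out animal, dissection and labelling. All 16 acinar enzyme genes listed as a check of the tissue were detected on both arrays.

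White fat cells store triglyceride in a single large droplet and act as an endocrine organ. Their differentiation is driven by the nuclear receptor PPARG, encoded by Pparg, and the transcription factor C/EBPalpha, encoded by Cebpa, which maintain each other's expression and together switch on most genes of the mature fat cell. Adiponectin (Adipoq), adipsin (Cfd), leptin (Lep) and resistin (Retn) are secreted by these cells in mice, whereas the uncoupling protein Ucp1 belongs to brown and beige fat. The pancreas contains and is surrounded by fat tissue, and Fabp4, Lpl and Pparg are also expressed in macrophages or capillary endothelium.

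Of the 10 genes, 6 were higher on the Nrdc-cKO array by 2-fold or more, through a measured difference or a bound, and 1 was lower by that much. Adipoq, Cfd, Retn and Car3 were found on the Nrdc-cKO array alone. Fabp4 and Lpl were detected on both arrays and higher on the Nrdc-cKO array, Pparg and Cebpa differed by less than 2-fold, Lep was lower, and Ucp1 was detected on neither array. Under spike-in scaling, which sets the E1A control RNA added to both samples equal, Lep was no longer lower and Pparg and Cebpa passed 2-fold upward, as did Cebpa on the authors' deposited values. Among all genes detected on either array, 14.8% were at least 2-fold higher by value or bound, against 6 of the 9 detected genes here. The genes and lists were chosen with earlier results of these data known, so such contrasts with all genes are descriptive only. Among all genes measured on both arrays, the higher ones by this threshold made up 12.8% and the lower ones 17.3%, against 2 and 1 of the 5 genes here that were measured on both. Over all genes, 2834 were found on the Nrdc-cKO array alone, 704 of them past 2-fold by their bound. On the WT array alone 200 were found, and all 200 passed 2-fold downward by their bound. The lowest detected log2 level, against which bounds are taken unless the probe's own level was higher, was -2.64 in WT and -4.18 in Nrdc-cKO. In RNA of whole tissue, fewer or more cells of a type and less or more RNA per cell cannot be told apart.

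**Figure D1:**
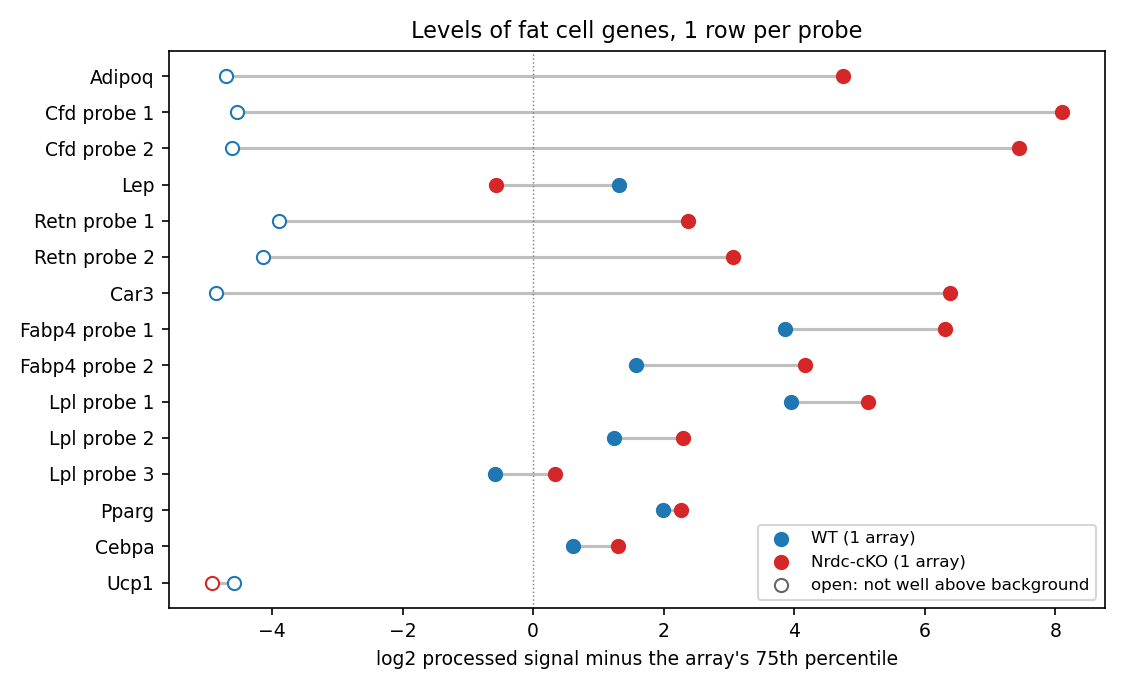
Level of each probe on the WT array (blue) and the Nrdc-cKO array (red), as log2 processed signal minus the 75th percentile of that array, with 1 array a group and open circles for probes not well above background. Adipoq, Cfd, Retn and Car3 go from open WT circles to filled Nrdc-cKO circles to the right of 2, Fabp4 and Lpl move right by smaller steps, and Lep moves left.

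As the genes differed in direction and in detection, the start regions of 4 of them are shown, each with the 250 bases before and the 50 bases after the annotated start (RefSeq, build GRCm38.p6, 5′ to 3′ on the gene's strand). They are Cfd, which had the largest bound of these genes, Adipoq, Lep, which went the other way, and the downstream start of Pparg, which gives rise to the fat cell isoform PPARG2. Capitals mark matches on either strand to TATAAA (the TATA box), TTNNGNAA (the letters of a C/EBP site), AGGTCA (a nuclear receptor half-site) or CCAAT (the CCAAT box). The windows lie at chr10:79890603-79890902 for Cfd, chr16:23146286-23146585 for Adipoq, chr6:29059971-29060270 for Lep and chr6:115421816-115422115 for Pparg, all on the plus strand.
Cfd: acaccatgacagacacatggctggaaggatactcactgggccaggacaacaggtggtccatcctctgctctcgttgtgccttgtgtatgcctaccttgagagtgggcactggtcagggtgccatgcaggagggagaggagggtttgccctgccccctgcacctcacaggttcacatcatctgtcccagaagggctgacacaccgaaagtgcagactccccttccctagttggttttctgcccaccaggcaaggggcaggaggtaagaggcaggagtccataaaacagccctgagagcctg
Adipoq: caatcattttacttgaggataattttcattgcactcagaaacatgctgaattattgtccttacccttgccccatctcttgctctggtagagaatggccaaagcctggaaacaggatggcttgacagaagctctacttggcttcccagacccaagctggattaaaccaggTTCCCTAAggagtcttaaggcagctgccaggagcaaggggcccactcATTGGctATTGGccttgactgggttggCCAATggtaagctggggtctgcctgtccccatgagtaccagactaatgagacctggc
Lep: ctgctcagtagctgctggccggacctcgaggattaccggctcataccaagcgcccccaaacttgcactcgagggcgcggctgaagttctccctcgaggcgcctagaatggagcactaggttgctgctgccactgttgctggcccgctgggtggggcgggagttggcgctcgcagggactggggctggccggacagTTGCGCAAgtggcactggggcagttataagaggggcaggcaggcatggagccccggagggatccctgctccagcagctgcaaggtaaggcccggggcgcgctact
Pparg: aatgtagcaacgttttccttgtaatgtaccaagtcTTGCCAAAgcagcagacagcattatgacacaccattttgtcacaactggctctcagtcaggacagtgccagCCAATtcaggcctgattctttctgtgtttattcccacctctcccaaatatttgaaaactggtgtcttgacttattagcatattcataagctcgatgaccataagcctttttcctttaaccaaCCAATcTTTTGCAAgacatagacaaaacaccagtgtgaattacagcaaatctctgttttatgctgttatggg

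In the Lep window the palindrome TTGCGCAA began at position -55 from the start, and it reads the same on both strands. The Adipoq window held 3 CCAAT matches, beginning at positions -34, -27 and -7, and 1 C/EBP match at -81. The Pparg window held C/EBP matches at -215 and -16 and CCAAT matches at -144 and -22, and none of these overlapped. The Cfd window held none of these letters. Over the 9 windows of the 7 genes with an entry, TATAAA was found in 2, TTNNGNAA in 3, AGGTCA in 3 and CCAAT in 3. Of 32851 promoter windows of the same length, 13.6% held TATAAA, 40.7% TTNNGNAA, 16.3% AGGTCA and 37.4% CCAAT. The letters are a description of the windows, and no binding was measured. Fabp4, Lpl and Car3 are named only.

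Adipoq encodes adiponectin, the most abundant hormone of fat cells, which raises insulin sensitivity. Its processed signal was 2.70 ± 2.71 in WT, not well above background, and 6124 ± 612 in Nrdc-cKO. The WT value lay at the array's background and the Nrdc-cKO value far above it, so only a lower limit of the difference can be given. The Nrdc-cKO level of Adipoq was at least 167-fold higher, measured from the lowest detected signal of the WT array. Other bounds below are taken in the same way, or from the probe's own WT level where that was higher, as for Agt, Bmper and Fabp3.

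Cfd encodes adipsin, the complement factor D protease that activates the alternative pathway and is made mainly by fat cells in mice. Its first probe read 3.06 ± 2.33 in WT and 62670 ± 6267 in Nrdc-cKO. Its second probe read 2.90 ± 2.91 and 39492 ± 3949. Both probes were at background on the WT array, and they gave bounds of at least 1714-fold and at least 1080-fold.

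Retn encodes resistin, a hormone that in mice comes from fat cells and opposes insulin action. Its probes read 4.78 ± 2.54 and 4.03 ± 2.80 on the WT array, neither well above background, and 1181 ± 118 and 1903 ± 190 on the Nrdc-cKO array. The bounds were at least 32.3-fold and at least 52.0-fold higher, so the probes did not differ in direction.

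Lep encodes leptin, which signals fat stores to the brain. Its probe was well above background on both arrays, with a processed signal of 176 ± 17.8 in WT and 154 ± 15.7 in Nrdc-cKO. The unscaled signals had overlapping error ranges and a ratio of 0.877, so nearly all of the scaled difference is the 1.68 between the percentiles of the arrays. On the scaled log2 levels, 1.31 in WT and -0.56 in Nrdc-cKO, Lep was 3.67-fold lower (log2 difference -1.87, scanner error 0.21). Only 3.95% of the 13001 genes measured on both arrays had a lower difference. Lep was thus detected on the WT array, where Adipoq, Cfd, Retn and Car3 were not, and which cells gave that signal was not tested. With spike-in scaling its difference was 0.01, whereas the other alternatives gave -1.87 to -1.23.

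Car3 encodes carbonic anhydrase 3, an abundant cytosolic protein of fat cells that is also high in skeletal muscle and liver. Its processed signal was 2.45 ± 2.46 in WT, not well above background, and 18938 ± 1894 in Nrdc-cKO. The bound was at least 518-fold higher. Of 12 skeletal muscle genes, the myosin genes Myh1 and Myh4, the muscle creatine kinase gene Ckm and the myoglobin gene Mb were the 4 detected on neither array, and 0 of the 3 measured on both arrays reached 2-fold in either direction. A further 4 muscle genes were found on the Nrdc-cKO array alone, 2 of them past 2-fold by their bound, Myh2 (at least 3.64-fold) and Acta1 (at least 2.33-fold). The 2 probes of Mylpf were detected on different arrays, so it has no value. Of 13 hepatocyte genes, 2 of the 6 measured on both arrays were higher, Alb (3.44) and Ttr (2.33), and 2 lower, Hnf4a (-1.54) and Serpina1a (-2.23). A further 4 were found on the Nrdc-cKO array alone, 2 of them past 2-fold by their bound, Ahsg (at least 361-fold) and Apob (at least 2.98-fold), and Apoa1, Fgb and Cps1 were detected on neither array. Summed over all probes of the hepatocyte list, the level was 38.1 in WT and 130 in Nrdc-cKO, in multiples of the 75th percentile. A few genes made up most of these sums. The highest log2 levels were those of Ahsg (5.86) and Ttr (5.62) in Nrdc-cKO, and of Hnf4a (4.01) in WT. Over all genes, 12.8% of those measured on both arrays were higher and 17.3% lower, and 704 of 2834 bounds passed 2-fold. The liver and muscle genes here, except Ahsg, are named after their values were seen. The part of liver and muscle transcripts in the Car3 result was not tested.

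Fabp4 encodes the fatty acid binding protein aP2, a classical target of PPARG that carries fatty acids inside fat cells, macrophages and capillary endothelium. Its first probe read 1029 ± 103 in WT and 17982 ± 1798 in Nrdc-cKO. Its second probe read 211 ± 21.3 and 4066 ± 407. Both arrays detected Fabp4, and both probes were higher on the Nrdc-cKO array by close to the same amount, with log2 differences of 2.44 and 2.58. The mean was 2.51 (5.71-fold), and 98.2% of the genes measured on both arrays had a lower difference. Whether the Fabp4 probes also read transcripts of related binding proteins was not tested.

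Lpl encodes lipoprotein lipase, which fat and muscle cells release to free fatty acids from circulating triglyceride at the capillary wall. Its brightest probe read 1095 ± 109 in WT and 7996 ± 800 in Nrdc-cKO. The other two read 168 ± 17.0 and 1113 ± 111, and 47.3 ± 5.51 and 286 ± 28.7. After scaling the log2 differences were 1.18, 1.04 and 0.91, all higher on the Nrdc-cKO array, with a mean of 1.05 (2.07-fold). Lpl lay at the 2-fold line, 1 probe falling below it, and 87.7% of the genes measured on both arrays had a lower difference.

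Pparg, the master regulator of fat cell formation, read 282 ± 28.4 in WT and 1099 ± 110 in Nrdc-cKO. Its scaled log2 level on the Nrdc-cKO array was 2.27, and the log2 difference from the WT array was 0.28 with a scanner error of 0.20. Pparg was therefore close to the bulk of genes, and 70.4% of the genes measured on both arrays had a lower difference. Which of the Pparg isoforms its 1 probe reads was not determined.

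Cebpa, the partner of Pparg in the mature fat cell and also a factor of liver and myeloid cells, read 108 ± 11.2 in WT and 562 ± 56.3 in Nrdc-cKO. The scaled log2 level was 0.61 in WT and 1.31 in Nrdc-cKO, a log2 difference of 0.69 (1.61-fold). Both regulators were detected in the WT pancreas and stood higher on the Nrdc-cKO array by less than 2-fold, except under spike-in scaling (2.16 for Pparg, 2.58 for Cebpa) and, for Cebpa, on the authors' deposited values (1.19), while 4 of the genes of mature fat cells were found on that array alone.

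Ucp1, which lets protons leak across the inner mitochondrial membrane of brown fat cells to make heat, read 2.95 ± 2.96 in WT and 7.49 ± 3.29 in Nrdc-cKO. Neither value was well above background, so no fold is given, and this says only that Ucp1 was not detectable at the sensitivity of these arrays.

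**Figure D2:**
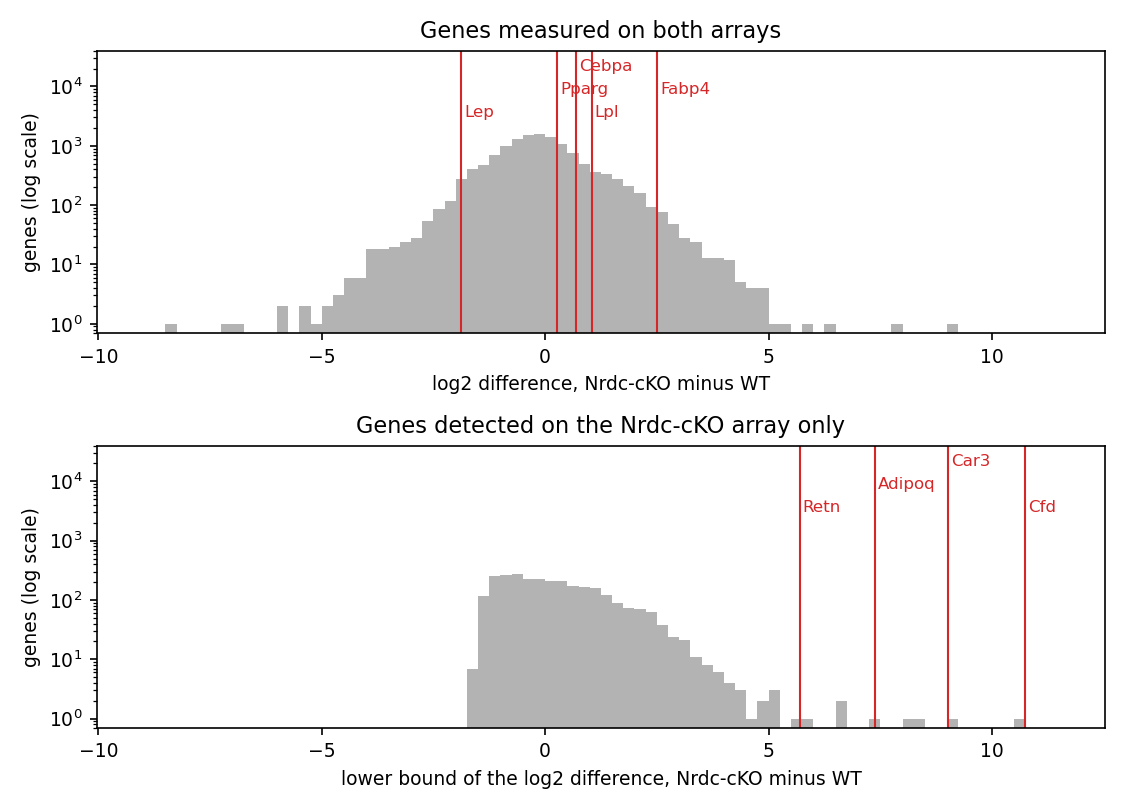
Number of genes (log scale) by log2 difference, Nrdc-cKO minus WT, for the 13001 genes measured on both arrays (top) and by lower bound for the 2834 genes found on the Nrdc-cKO array alone (bottom), with red lines at the fat cell genes. Pparg and Cebpa lie within the bulk, Fabp4 in the upper flank and Lep in the lower flank, and Retn, Adipoq, Car3 and Cfd lie beyond nearly all other bounds.

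Bounds depend on the brightness of the Nrdc-cKO probe and do not order the true differences. The 10 genes with the largest bounds over all named genes included 4 of the genes described here, Cfd, Car3, Adipoq and Retn. They also held 2 genes of fat cell lipid handling, the lipid droplet protein gene Cidec (at least 278-fold) and Pck1 (at least 35.5-fold), which makes the glycerol backbone for triglyceride in fat cells, and angiotensinogen, Agt (at least 94.8-fold), which fat cells and liver secrete.

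**Figure D3:**
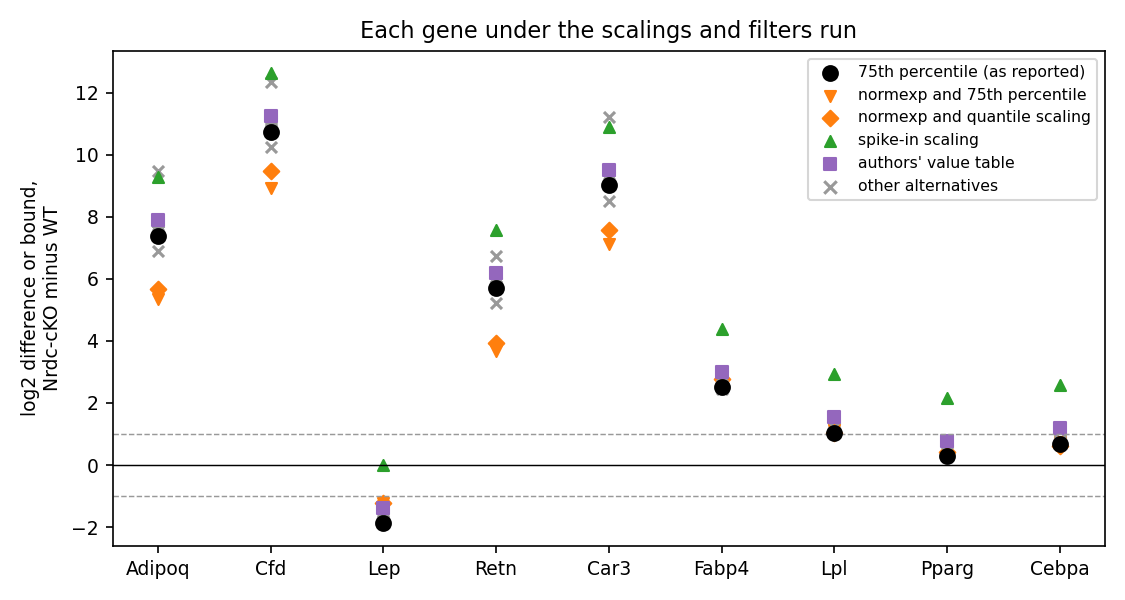
Log2 difference, or bound for genes detected on 1 array only, Nrdc-cKO minus WT, of 9 genes under each scaling and filter, with dashed lines at 2-fold either way and 0 as a solid line. Adipoq, Cfd, Retn, Car3 and Fabp4 stay above the upper dashed line throughout, and Lep lies below the lower line except with spike-in scaling, where it is at 0.01.

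Across settings Adipoq ranged from 5.34 with normexp, a model-based background correction, and the 75th percentile to 9.46 with no filter on dim probes, and Cfd from 8.93 to 12.63. Fabp4 ranged from 2.44 to 4.40 and Lpl from 1.04 to 2.93. Nrdc, at -3.21 in the scaling used here, stood at -1.33 under spike-in scaling and -2.71 on the authors' values. With normexp and the 75th percentile Nrdc stood at -2.23. Relative to the scaling used here, the median of all genes moved by 1.88 under spike-in scaling, 0.50 on the authors' values, 0.23 with normexp and the 75th percentile, and by 0.06 to 0.16 with quantile scaling, loess, normexp and quantile scaling or the detected probes.

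Genes of other secreted fat cell proteins mostly had higher levels in the Nrdc-cKO pancreas. Of 25 on the list, 17 were measured on both arrays, of which 13 passed 2-fold upward and 1 downward, and the median log2 difference was 2.18 beside -0.18 over all 13001 genes. A further 7 were found on the Nrdc-cKO array alone, 6 of them past 2-fold by their bound. Over all genes, 12.8% of those measured on both arrays were higher and 17.3% lower, and 704 of 2834 bounds on the Nrdc-cKO array passed 2-fold. Haptoglobin, Hp, a plasma haemoglobin binder that fat and liver cells make, had a log2 level of -1.03 in WT and 6.96 in Nrdc-cKO, a difference of 7.99. The retinol carrier Rbp4 stood at a difference of 3.18, the resistin-like Retnla, made by macrophages and fat cells, at 3.25, and Angptl4, an inhibitor of lipoprotein lipase, at 2.92. Adipogenin, Adig, a small membrane protein of fat cells, was at least 17.8-fold higher and the imprinted proteolipid gene Nnat at least 18.6-fold. The acute-phase glycoprotein gene Orm1 was at least 4.96-fold higher. The log2 bounds of Adig, Nnat and Orm1 were 4.15, 4.22 and 2.31. With normexp and the 75th percentile they were 2.11, 2.22 and 0.75. The lower member was Lgals12, a galectin of fat cell lipid droplets, at -1.45 (-1.59 and -1.31 for its probes), but at 0.43 under spike-in scaling, -0.96 on the authors' values and -0.94 with normexp and quantile scaling. The next lowest was Metrnl, a secreted factor of muscle and fat, at 0.56.

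Genes of lipid storage and breakdown in fat cells, most of them known PPARG targets, were higher in more than 1 in 2 cases. Of 38 on the list, 30 were measured on both arrays, of which 17 passed 2-fold upward and 1 downward, and the median was 1.25. Over all genes measured on both arrays, 12.8% passed upward and 17.3% downward, and the median was -0.18. Another 8 were found on the Nrdc-cKO array alone, 7 of them past 2-fold by their bound, beside 704 of 2834 over all genes. The droplet coat gene Plin4 stood at a log2 difference of 6.40, the triglyceride synthase gene Dgat2 at 4.76, the desaturase gene Scd1 at 4.53 and malic enzyme, Me1, which supplies reducing power for lipid synthesis, at 3.24. Perilipin 1, Plin1, which guards the fat cell droplet, was at least 27.2-fold higher and the beta3-adrenergic receptor gene Adrb3, which starts lipolysis in fat cells, at least 16.1-fold. The 2 probes of Adrb3 differed, with log2 bounds of 4.01 and 0.50. The lipase maturation factor gene Lmf1, needed for active lipoprotein lipase, stood at -1.01, but at 0.88 under spike-in scaling and between -0.95 and -0.51 in 8 others of the 12 alternatives, and the epidermal fatty acid binding protein gene Fabp5 stood at -0.71.

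**Figure D4:**
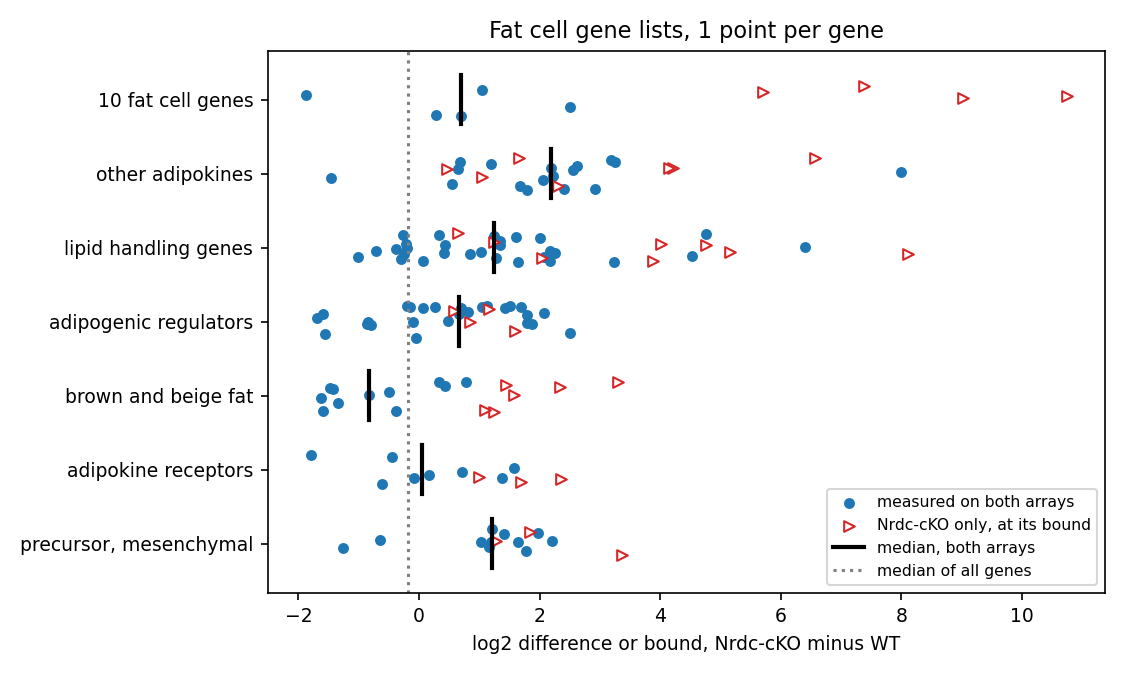
Log2 difference, Nrdc-cKO minus WT, of the genes measured on both arrays (blue) and lower bound of those found on the Nrdc-cKO array alone (red triangles, bounds above 0), by list, with black bars at the median of the blue points and a dotted line at the median of all genes. The lists of other adipokines and of lipid handling lie mostly to the right of the dotted line at -0.18, and the blue points of the brown and beige list mostly to its left.

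Regulators of fat cell formation passed 2-fold upward more often than downward. Of 32 on the list, 27 were measured on both arrays, with 10 past 2-fold upward, 3 downward and a median of 0.66, and 4 were found on the Nrdc-cKO array alone. Over all genes measured on both arrays, 12.8% were higher and 17.3% lower, with a median of -0.18, so the share of lower regulators was no larger than over all genes. The early factors Ebf3 (2.08), Cebpd (1.87) and Egr2 (2.51), the last also an immediate early gene of many cells, were higher, as was Dlk1 (1.79), a membrane protein that holds precursors back from becoming fat cells. Ebf3 stood at 0.81 with normexp and the 75th percentile. Klf15, which acts late in fat cell formation and in fasting metabolism, was lower at -1.69, and Ppara, the fatty acid oxidation receptor, at -1.59, but they stood at 0.20 and 0.30 under spike-in scaling, and Ppara at -0.92 with normexp and quantile scaling. Gata3, which restrains fat cell formation, was at least 3.02-fold higher and the commitment factor gene Zfp423 at least 2.25-fold, whereas Gata2 (at least 1.80-fold) and Rxrg (a bound of 0.59 on the log2 scale) had bounds under 2-fold. With normexp and quantile scaling the log2 bounds of Gata3 and Zfp423 were 0.76 and 0.48. The 2 probes of Zfp423 differed in the scaling used here, with log2 bounds of 1.17 and -0.74, the second giving no limit above 1-fold.

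Brown and beige fat genes measured on both arrays mostly had differences below 0, though their median was 1.05 under spike-in scaling. Of 24 on the list, 11 were measured on both arrays, with 0 past 2-fold upward, 5 downward and a median of -0.83, and 4 others, with Ucp1 counted apart, were detected on neither array. Over all genes, 12.8% of those measured on both arrays were higher and 17.3% lower, with a median of -0.18, and 704 of 2834 bounds passed 2-fold. Among those measured, the coactivator gene Ppargc1a stood at 0.78, the respiratory chain gene Cox7a1 at 0.43, Otop1 at 0.34 and the glycerol kinase gene Gk at -0.38, and Lhx8 was lowest at -1.62, but at 0.27 under spike-in scaling and -0.22 with no filter on dim probes. Of 9 found on the Nrdc-cKO array alone, 6 passed 2-fold by their bound, led by the amino acid transporter gene Slc36a2 (at least 9.84-fold) and the respiratory chain gene Cox8b (at least 5.08-fold), with Tbx1 at least 2.98-fold and Fabp3 at least 2.71-fold. With normexp and the 75th percentile the log2 bounds of Cox8b, Tbx1 and Fabp3 were 0.66, 0.31 and 0.03. In the scaling used here, with bounds past 1-fold counted in, the median of the list was 0.34, beside -0.09 over all genes. By value or bound, 30.0% of the detected genes on the list were at least 2-fold higher, beside 14.8% of all detected genes. The brown fat deiodinase gene Dio2 and the patterning gene Zic1, chosen after their values were seen, were among those detected on neither array.

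Receptors for adipokines differed in both directions. Of 11 on the list, 8 were measured on both arrays, with 2 past 2-fold upward, 1 downward and a median of 0.05, beside 12.8% and 17.3% of all genes. The leptin receptor gene Lepr was lower at a log2 difference of -1.79, beside -1.87 for Lep, but at 0.091 under spike-in scaling and at 0.32 with no filter on dim probes, which takes in all 4 of its probes. The adiponectin receptor genes Adipor1 and Adipor2 stood at -0.62 and 0.17, and the adiponectin-binding cadherin gene Cdh13 at 0.72. The complement receptor gene C3ar1, which binds a product of the pathway that adipsin activates, was higher at 1.58, the resistin-binding Cap1 at 1.38, and C5ar1 at least 5.10-fold. Tlr4, which also binds resistin, was at least 3.23-fold higher, and the bound of the apelin receptor gene Aplnr fell just under 2-fold. With normexp and the 75th percentile C3ar1 stood at 0.30 and the log2 bounds of C5ar1 and Tlr4 at 0.55 and 0.23, all under 2-fold.

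Markers of other cells that express Fabp4, Lpl or Pparg, or that adjoin fat, also differed between the arrays. For comparison, 12.8% of all genes measured on both arrays were higher and 17.3% lower, with a median of -0.18. By value or bound, 14.8% of all detected genes were higher. Of 13 measured macrophage genes, 11 passed 2-fold upward and 0 downward, the median was 2.18, and their summed level was 69.4 in WT and 180 in Nrdc-cKO. Of 13 measured capillary endothelial genes, 6 were higher and 0 lower, with a median of 0.91 and summed levels of 41.6 and 87.0. Of 12 lymph node and lymphoid genes, 9 were higher by value or bound and 2 lower, with summed levels of 20.1 and 46.4, and of 7 detected mesothelial genes 4 were higher, with 14.4 and 21.2. The 15 probes of the 10 fat cell genes summed to 44.4 and 719. Cfd made up most of the Nrdc-cKO sum, with log2 levels of 8.11 and 7.44 for its probes. These sums run over all probes of a list, detected or not, so a gene with several probes counts several times, and sums of different lists are not comparable. Islet genes (12 of 12 higher by value or bound, summed levels of 384 and 2988) and acinar enzyme genes (15 of 16 lower, 75690 and 19613, with a median of -1.76 that was 0.12 under spike-in scaling, 0 under quantile scaling with or without normexp, and -0.61 under loess) also differed, and 3 of 10 duct genes were higher and 2 lower (428 and 394). Their part in the differences of Fabp4, Lpl, Pparg and the other fat cell genes was not tested. On the WT array all 13 macrophage genes with a probe were detected, and so were the endothelial genes except the transcription factor gene Erg. Of the fat cell genes, Lep, Fabp4, Lpl, Pparg and Cebpa were detected there, and Adipoq, Cfd, Retn, Car3 and Ucp1 were not. Which cells gave these signals was not tested.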

How the data were processed

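Total RNA of whole pancreas was labelled with Cy3 and measured on 1 single-colour Agilent array for WT and 1 for Nrdc-cKO, grouped by sample title. Per the file headers, both arrays lay on 1 slide and were read in the same scan. The deposited scanner files give each spot's processed intensity on a linear scale, corrected for background by Feature Extraction 12.0.3.1 per the file headers (11.5.1.1 per the submitters' processing notes), with its error, its median pixel intensity and flags. The authors' deposited value table holds the same linear intensity, not centred, times 1 constant per array (4.37 in WT, 1.92 in Nrdc-cKO), with probe medians of 35.5 and 55.0. The origin of these constants is not stated in the labels or headers.

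Of 59305 non-control spots, 115 with an outlier flag on either array were left out, and none was saturated. Log2 intensities were averaged over the spots of a probe and the 75th percentile of all 56604 probes was subtracted. Probes with a RefSeq accession (35885) were named through a RefSeq gene table (GRCm38.p6), which matched 32993. A gene's difference is the mean over probes detected on both arrays. A gene detected on 1 array has a bound, against the higher of the lowest detected level of the other array and the probe's own level there, and its largest probe bound is used. The threshold was 2-fold. The scanner error of a log2 difference combines the errors of both spots. Over 291 probes with repeat spots, the SD of the log2 difference had a median of 0.032. The steps were tested on simulated data.

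The genes and the 15 further lists (253 genes) were chosen with earlier results of these data known. Named were all 10 genes, the 10 largest bounds, and, in each fat-related list, the 4 highest and 2 lowest differences and up to 4 largest bounds above 1-fold. The same rule was written for the cell type marker lists, which are given as counts. Some secreted protein, receptor, matrix, hepatocyte and mesothelial genes belong to several cell types. Alternatives were run with limma 3.58.1 (normexp with an offset of 50, quantile, loess), the 8 detected E1A spike-in probes, the value table, other filters, probes and thresholds. Python 3.11.15 and R 4.3.3 were used.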

Additional observations from a re-analysis of the deposited data

How the results depend on the processing

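No paired analysis was possible because a single array stood for each genotype, and no replicate could be left out. Adipoq, Cfd, Retn, Car3, Fabp4 and Lpl stayed at least 2-fold higher in all 12 scalings, filters and probe rules run. Genes at least 2-fold lower, 1 of the 10, numbered 0 with spike-in scaling and 0 at 4-fold. Signal over background limits Adipoq, Cfd, Retn and Car3 to bounds and leaves Ucp1 without a value. For changes without a stated cause, the cause was not tested.

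Spike-in scaling, which adds 1.88 to each log2 value, turned Lep to 0.010, Lgals12 to 0.43, Lepr to 0.091, Ppara to 0.30, Klf15 to 0.20, Lmf1 to 0.88, Lhx8 to 0.27, Col15a1 to 0.63 and the acinar median to 0.12, which was 0 under quantile scaling with or without normexp. With no filter on dim probes Lepr was 0.32 and Col15a1 0.12. Genes at least 2-fold higher with spike-in scaling numbered 10 of the receptors, 28 of the regulators, 37 of the lipid handling genes and 13 of the brown and beige genes, against 4, 12, 24 and 6. With normexp and the 75th percentile they numbered 1 receptor, 1 brown or beige and 7 precursor genes, and with normexp and quantile scaling 1 receptor, 7 regulators, 2 brown or beige and 7 precursor genes. At 4-fold they numbered 1 receptor, 2 regulators, 15 lipid handling, 2 brown or beige and 2 precursor genes, by construction of the threshold.

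Over all genes on both arrays, 1666 passed 2-fold upward and 2252 downward. These counts were 10331 and 118 with spike-in scaling, 2888 and 1074 on the authors' values, 3108 and 8013 without the filter, 2617 and 4065 at 1.5-fold, and 485 and 390 at 4-fold. The lower genes numbered 1146 with normexp and the 75th percentile and 847 with normexp and quantile scaling.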

Other observations

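Genes of fat cell precursors and other mesenchymal cells mostly had higher levels in the Nrdc-cKO pancreas, beside those of mature fat cells. Of 14 listed, 11 were measured on both arrays, of which 9 passed 2-fold upward and 1 downward, and the median log2 difference was 1.21. The other 3 were found on the Nrdc-cKO array alone, each past 2-fold by its bound. Over all genes, 12.8% of those measured on both arrays were higher and 17.3% lower, with a median of -0.18, and 704 of 2834 bounds passed 2-fold. The growth factor receptor gene Pdgfra, a marker of fat cell precursors and fibroblasts, stood at 2.21, the tissue factor gene F3 at 1.97, Dpp4, which marks early precursors, at 1.78 and Ly6a (Sca-1) at 1.65. The BMP-binding protein gene Bmper was at least 10.4-fold higher, Mmp3 at least 3.59-fold and Icam1 at least 2.44-fold. With normexp and quantile scaling Dpp4 stood at 0.81 and the log2 bounds of Mmp3 and Icam1 at 0.88 and 0.55. The basement membrane collagen gene Col15a1 was lower at -1.26, but at 0.63 under spike-in scaling and 0.12 with no filter on dim probes, and the surface protein gene Cd24a stood at -0.65.

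Among the 10 largest bounds were also genes of other sources. The liver plasma protein gene Ahsg was at least 361-fold higher, the B cell chemokine gene Cxcl13 at least 91.8-fold and the chemokine gene Ccl8 at least 62.5-fold.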
